A study of Mus musculus with 30 samples.

Results

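The 34 genes described here serve glutathione and antioxidant defence in the mouse. They were taken from a fixed list of symbols, out of 34337 protein-coding, lncRNA and antisense genes of the autosomes and X in the RefSeq annotation of GRCm38. It holds 5 genes of glutathione synthesis and recycling, 5 glutathione peroxidases, 4 glutathione S-transferases, 4 genes of the thioredoxin system, 7 genes for peroxiredoxins and sulfiredoxin, 4 for superoxide dismutases and catalase, and 5 for the Nrf2 sensor pair and its targets. For each gene the CpGs within the gene and 2000 bp on either side were read. This gave 1312 tested CpGs of 1125285 in all, in 33 of the 34 genes. Gpx5, which encodes a secreted peroxidase of the epididymis, had no CpG with 10 reads in any mouse and has no value below.

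Glutathione is a small thiol peptide that cells make in high amounts, and it is the electron donor with which peroxidases remove peroxides and transferases detoxify reactive compounds. The thioredoxin system does parallel work on protein thiols, and the transcription factor Nrf2, held in check by the sensor Keap1, turns on many of these genes under oxidative or metal stress. Sperm have little cytoplasm and membranes rich in oxidisable lipids, so protection rests on a few enzymes such as the phospholipid peroxidase Gpx4, on the thioredoxin reductase Txnrd3 that acts in spermatids, and on enzymes secreted by the epididymis. Cadmium binds thiols and depletes glutathione.

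DNA methylation was measured in mature sperm from both cauda epididymides of 30 singly housed C57BL/6J males by RRBS (reduced representation bisulfite sequencing), a method that samples CpG-rich fragments. The cadmium group of 15 mice drank reverse-osmosis (RO) water holding cadmium chloride at 0.9 ppm of cadmium, at an average dose of 0.68 mg per kg of body weight, and the vehicle group of 15 drank RO water alone. All mice were 7 weeks old at first, are labelled as 9 weeks post treatment, and ate the same diet with 10% of energy from fat. The labels call the strain C57BL/6 in one place and C57BL/6J in another.

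Coverage summed over cytosines ran from 53591172 to 94090975 per library, with a mean of 67305335 ± 7264614 (SD) in cadmium and 74103801 ± 11357477 in vehicle (two-sided permutation test, p = 0.0613). Sperm lack methylation at maternally imprinted control regions and carry it at the H19 control region, whereas body cells carry it on a single parental copy of each. The maternal germline DMR level averaged 12 ends of imprinted genes, which need not be the control regions themselves. It was 15.6% ± 5.99 in cadmium (5.42% to 25.1%) and 12.3% ± 8.38 in vehicle (2.85% to 31.9%). The permutation test did not separate this difference from the spread between mice (p = 0.223). Its gene ends were kept because they averaged under 20% in these same data, so a low mean level was set in advance. They averaged between 0.904% for Grb10 and 19.2% for Peg13, so none was at 0. At the H19 control region, read by 2 CpGs, the means were 87.1% ± 9.32 and 88.6% ± 12.8 (p = 0.715). Every mouse was above 0% in the maternal germline DMR level, by an amount that varied widely in both groups.

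Each level is the share of reads that were methylated at the tested CpGs of a region, in percent, first per mouse and then as the mean ± SD of 15 mice per group unless another n is given. Regions are the 5′ end and the 3′ end, each from 2000 bp outside to 1000 bp inside the annotated gene, and the body between them. The strand was known for 28 genes; for Gclc, Gsr, Gsta4, Prdx6, Sod3 and Hmox1 the ends are called low-coordinate and high-coordinate. In DNA from many cells, a partial level cannot tell a share of methylated cells from partial methylation in each.

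The following windows of 250 bases upstream of annotated starts (RefSeq, GRCm38.p6) are shown because the results turn on them. They are written 5′ to 3′ on the gene's strand, with tested CpGs in capitals. The first pair contrasts the most upstream start of Gpx4 (chr10:80046916-80047165, + strand), methylated in sperm, with the fourth start inside the same gene (chr10:80053761-80054010, + strand), which was almost free of methylation.
Gpx4, start 1: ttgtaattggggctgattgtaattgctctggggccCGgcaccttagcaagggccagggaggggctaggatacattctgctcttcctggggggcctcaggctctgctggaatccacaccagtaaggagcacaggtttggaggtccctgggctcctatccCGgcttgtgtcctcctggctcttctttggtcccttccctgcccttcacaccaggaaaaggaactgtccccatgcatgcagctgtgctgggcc
Gpx4, start 4: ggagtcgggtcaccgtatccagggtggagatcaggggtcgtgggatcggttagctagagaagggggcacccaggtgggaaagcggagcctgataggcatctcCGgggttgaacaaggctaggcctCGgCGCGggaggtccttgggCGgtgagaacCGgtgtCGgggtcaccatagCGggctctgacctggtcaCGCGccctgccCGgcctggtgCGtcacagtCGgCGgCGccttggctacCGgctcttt

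The 2 tested CpGs before the upstream Gpx4 start averaged 84.3% and 95.3% over the groups, and the 16 before the fourth start lay between 0% and 3.33%. A similar contrast was seen in Hmox2, which encodes the constitutive heme oxygenase. Its annotated start 3 (chr16:4756696-4756945, + strand) held 6 tested CpGs of intermediate level, between 39.1% and 43.8%, although 36 CpGs at the gene's 5′ end averaged under 1%. The second start of Txnrd1 (chr10:82858956-82859205, + strand) is a low-methylation start of a gene whose annotated 5′ end held no tested CpG.
Hmox2, start 3: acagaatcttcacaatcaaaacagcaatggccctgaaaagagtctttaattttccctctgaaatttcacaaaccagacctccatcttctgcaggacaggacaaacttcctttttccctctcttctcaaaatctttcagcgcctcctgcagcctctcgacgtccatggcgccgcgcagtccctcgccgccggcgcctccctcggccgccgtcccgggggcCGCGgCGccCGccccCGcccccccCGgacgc
Txnrd1, start 2: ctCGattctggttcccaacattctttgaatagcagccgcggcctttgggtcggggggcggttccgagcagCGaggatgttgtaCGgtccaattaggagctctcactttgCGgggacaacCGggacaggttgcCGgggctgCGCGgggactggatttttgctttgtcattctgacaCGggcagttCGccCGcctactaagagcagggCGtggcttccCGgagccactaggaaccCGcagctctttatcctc

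Sod2 (chr17:13007589-13007838, + strand) and Gclm (chr3:122245307-122245556, + strand) are shown for single features. The only tested CpG of the Sod2 window, at -205 from the start, is among the 8 CpGs with the smallest p between the groups. The Gclm window holds 34 tested CpGs, none above 2.87%, and both motifs described next.
Sod2: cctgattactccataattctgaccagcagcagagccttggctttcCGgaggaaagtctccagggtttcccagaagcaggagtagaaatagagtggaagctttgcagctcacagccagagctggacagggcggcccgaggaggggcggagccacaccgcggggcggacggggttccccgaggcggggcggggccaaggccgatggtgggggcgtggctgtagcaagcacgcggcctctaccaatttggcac
Gclm: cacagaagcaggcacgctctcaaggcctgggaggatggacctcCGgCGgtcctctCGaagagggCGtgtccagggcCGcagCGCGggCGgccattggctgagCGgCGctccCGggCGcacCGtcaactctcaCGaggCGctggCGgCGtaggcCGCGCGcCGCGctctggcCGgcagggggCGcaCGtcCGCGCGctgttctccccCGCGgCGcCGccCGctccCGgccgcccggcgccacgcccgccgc

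Windows of 300 bases, from 250 before to 50 after each start, were searched on both strands for the core of the antioxidant response element, TGACNNNGC, which Nrf2 binds, and of the metal response element, TGCACNC or TGCGCNC. The antioxidant core was present in 6 of 36 windows of the 28 genes (16.7%), those of Gclm, Nfe2l2, Prdx1, Sod1, Srxn1 and Txnrd1, against 4071 of 32851 windows of all genes (12.4%). The metal core was present in 7 of 36 (19.4%), in Gclm, Gstm1, Prdx4, Srxn1, Txnrd2 and Txnrd3, against 25.7% of all windows. In Gclm the antioxidant match GCACCGTCA, from -134 to -126 relative to the start and read on the other strand, overlaps a metal match that begins a few bases further upstream. The 2 tested CpGs touching this Gclm match averaged 0.347% in cadmium and 0% in vehicle (n = 12 in each group). In Nfe2l2 1 tested CpG touched the match TGACTCCGC and in Prdx1 1 touched GCTGAGTCA, and both were at 0 in every mouse. The matches of Sod1, Srxn1 and Txnrd1 (GCGTGGTCA, GCTAGGTCA and GCTTTGTCA) touched no tested CpG. These matches are letters in a window and not measured binding sites.

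In both groups, the antioxidant genes had nearly unmethylated 5′ ends and varied bodies and 3′ ends, with medians near those of all genes. Over all mice, the median tested region was at 0.853% for 5′ ends, 70.8% for bodies and 72.4% for 3′ ends. For all genes these medians were 0.952%, 76.7% and 73.1%. Of the 1312 CpGs, 1015 (77.4%) averaged under 10%, 173 lay from 10% to 90% and 124 (9.45%) were over 90%, against 53.9%, 22.7% and 23.4% of all tested CpGs. These sets are unlike in place, since all tested CpGs include those far from genes and 701 of the 1312 lay at 5′ ends. The part of place in this contrast was not tested. At 5′ ends 682 of 701 CpGs were under 10%. By region, 20 of 21 5′ ends with 3 or more CpGs averaged under 10% over all mice, against 76.25% of the 5′ ends of all genes, and 15 were under 2% in both groups. Their median was 0.779% in cadmium and 0.654% in vehicle. Bodies had 135 CpGs under 10%, 131 from 10% to 90% and 93 over 90%. Of the 135, 58 were in Gpx4 and 59 in Txnrd1, most of them at inner RefSeq starts. Tested bodies ranged from 0.5003% in Prdx4, whose CpGs lay just inside its RefSeq start, to 96.1% in Gsto1. Of the 18 tested bodies, 11.1% averaged under 10% and 33.3% over 90%, against 9.83% and 29.7% of all bodies. Of 88 runs of 3 or more CpGs no more than 300 bp apart, 35 were under 10%, 32 from 10% to 90% and 21 over 90%.

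**Figure D1:**
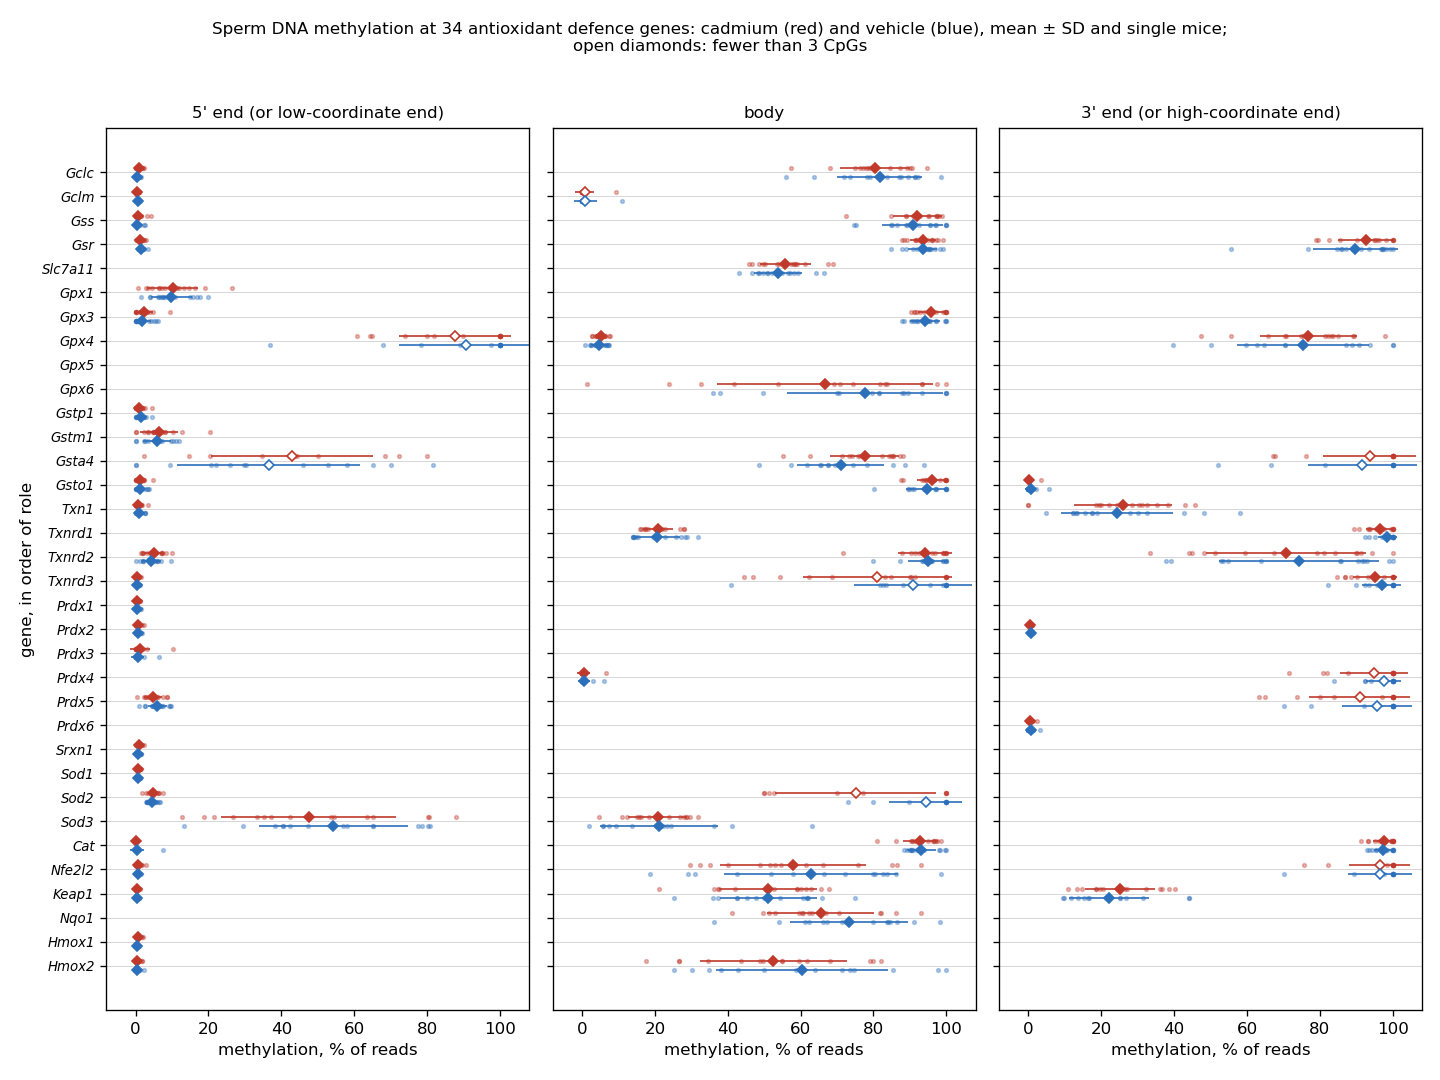
Methylation in percent of reads (x axis) at the 5′ or low-coordinate end, the body and the 3′ or high-coordinate end of each gene (y axis), for cadmium (red) and vehicle (blue): small points are mice, diamonds and bars are mean ± SD, and open diamonds mark regions of fewer than 3 CpGs. The 5′ ends crowd at the left apart from the low-coordinate ends of Gsta4 and Sod3, near the middle, and Gpx4, at the right, and the red and blue mice overlap in every region.

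Between the groups, no gene of the list passed the test at any end or body. A logistic model of methylated and unmethylated reads, with a dispersion term for the spread between mice, called 0 of 54 regions at an adjusted p (Benjamini-Hochberg over all regions) under 0.05, where it also called 0% of the 42997 regions of all genes. At an unadjusted p under 0.05 it took 2 of 54 (3.70%), Gclc and Cat, against 4.68% of all regions. Limma on percent methylation took 0 of 54 unadjusted and called 0, where it took 1405 of all 42997 regions unadjusted and called 0. Cadmium was higher in 28 regions and lower in 26, with a median difference of 0.0251 percentage points (0.0608 over all regions) and a median absolute difference of 0.421 points (0.787 over all). Differences at the 5′ ends lay between -1.12 and 0.734 points, 13 of them higher in cadmium and 8 lower.

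**Figure D2:**
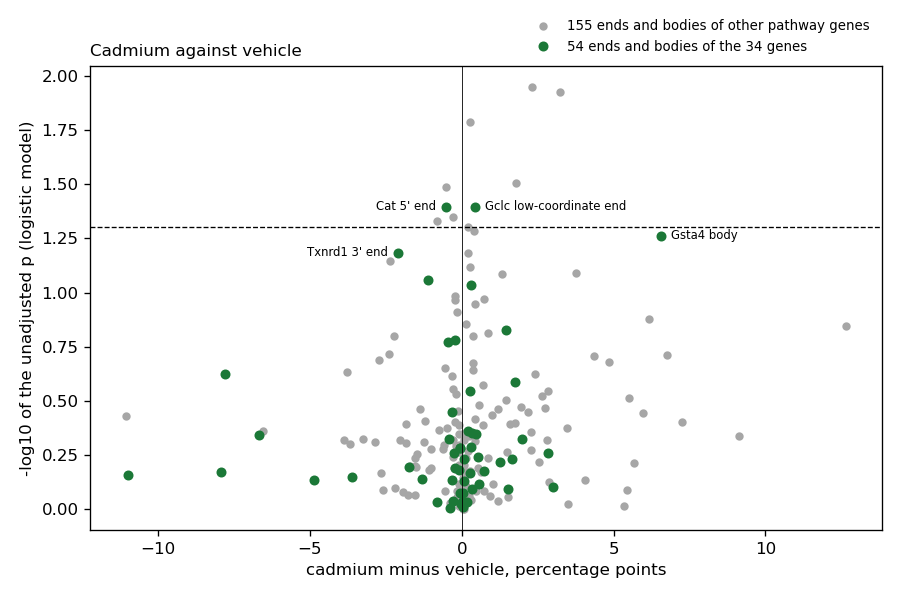
Each point is an end or body of a gene, with the cadmium minus vehicle difference in percentage points on the x axis and -log10 of the unadjusted p of the logistic model on the y axis; the dashed line is p = 0.05. The 54 regions of the 34 genes (green) lie among the 155 regions of other pathway genes (grey), and Gclc and Cat are the green points above the line.

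Glutathione synthesis begins with glutamate-cysteine ligase, whose catalytic subunit is Gclc and whose modifier is Gclm. The low-coordinate end of Gclc (gene at chr9:77754535-77794489; 52 CpGs) ranged from 0.144% to 2.32% with a median of 0.675% in cadmium, and from 0% to 1.62% with a median of 0.336% in vehicle. The groups overlapped along most of this range, and all mice were nearly unmethylated. The means were 0.932% ± 0.685 and 0.499% ± 0.497, a difference of 0.434 points (logistic model, p = 0.0402, adjusted p = 1). The unmethylated control sequence read 0.0740% to 0.666% per library, up to more than this difference. The part of conversion error in differences this small, here and in Prdx2 and Hmox1 below, was not tested. In the body of Gclc, 17 CpGs ranged from 57.5% to 94.7% (median 79.0%) in cadmium and from 55.9% to 98.5% (median 83.7%) in vehicle. Body means were 80.4% ± 9.61 and 81.7% ± 11.6 (logistic model, p = 0.728, adjusted p = 1).

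The 5′ end of Gclm was read by 87 CpGs, the most of any region at a 5′ end here, and averaged 0.509% ± 0.329 in cadmium and 0.565% ± 0.335 in vehicle. Gss, which encodes glutathione synthetase, averaged 0.779% and 0.505% at its 5′ end and 92.1% and 90.8% in its body. Gsr, the reductase that returns oxidised glutathione to its thiol form, had 1.24% and 1.55% at its low-coordinate end, 93.6% and 93.5% in its body, and 92.6% and 89.7% at its high-coordinate end. Both genes thus had one end with little methylation and a body over 90% in both groups.

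Slc7a11 is the cystine importer that feeds glutathione synthesis, and its gene model (chr3:50364936-50499087, - strand) had no tested CpG at its annotated 5′ end. Its 26 body CpGs ranged from 45.8% to 69.0% (median 57.3%) in cadmium and from 43.2% to 66.6% (median 52.0%) in vehicle. Almost the whole range was shared, with means of 55.8% ± 6.98 and 53.8% ± 6.54 (logistic model, p = 0.474, adjusted p = 1). This body was a mixture. A run of 9 CpGs at chr3:50377537-50377789 averaged 37.3% ± 24.1 in cadmium and 32.6% ± 21.8 in vehicle, with mice from 2.91% to 79.2%. Another 3 CpGs, next to the RefSeq start at 50443613 inside the gene model, averaged 0.363% and 1.03%.

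Among the peroxidases, Gpx1, the widely expressed cytosolic enzyme, had the highest 5′ end of the list with 3 or more CpGs, 10.2% ± 6.96 in cadmium and 9.85% ± 5.71 in vehicle (logistic model, p = 0.806, adjusted p = 1). Mice ranged from 0.598% to 26.4% in cadmium (median 8.13%) and from 1.43% to 19.96% in vehicle (median 7.65%), so the groups overlapped. The window also holds an end of Rhoa. The level came from 3 CpGs between -1114 and -969 bp from the start (44.1% ± 18.9 and 39.99% ± 13.7), whereas 12 CpGs just after the start averaged 1.08% and 0.624%. Gpx3, the secreted plasma peroxidase, averaged 2.197% and 1.88% at its 5′ end and 95.9% and 94.1% in its body.

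Gpx4 reduces lipid peroxides in membranes and becomes a structural protein of the sperm midpiece. Its most upstream start had 87.7% ± 15.3 in cadmium and 90.7% ± 18.4 in vehicle (n = 14), over the 2 CpGs in capitals above. The mice ran from 60.8% to 100% and from 37.0% to 100%, with a median of 100% in each group. The body, with 65 CpGs, averaged 5.13% ± 1.56 and 4.67% ± 2.15. Of these CpGs, 58 form a run around the inner starts that averaged 0.517% and 0.354%. A run of 7 CpGs between the upstream start and the inner starts averaged 83.7% ± 14.0 and 86.6% ± 8.35. At the 3′ end of Gpx4, 3 CpGs that also lie by an end of Sbno2 ranged from 47.4% to 97.8% (median 81.5%) in cadmium and from 39.6% to 100% (median 75.7%) in vehicle. The groups overlapped fully there, at 76.8% ± 13.3 and 75.3% ± 18.1 (logistic model, p = 0.804, adjusted p = 1).

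Gpx6, a peroxidase known from the olfactory epithelium, had 4 tested CpGs, all in the body. Its values ranged from 1.43% to 100% (median 74.5%) in cadmium and from 36.0% to 100% (median 81.5%) in vehicle. This was the widest spread between mice of any tested region of the list in the cadmium group. Its means of 66.7% ± 29.7 and 77.7% ± 21.3 gave the largest difference of the 54 regions, -10.98 points, which was smaller than either SD (logistic model, p = 0.693, adjusted p = 1). With the maternal germline DMR level of each mouse in a limma model, the difference was -3.74 points.

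**Figure D3:**
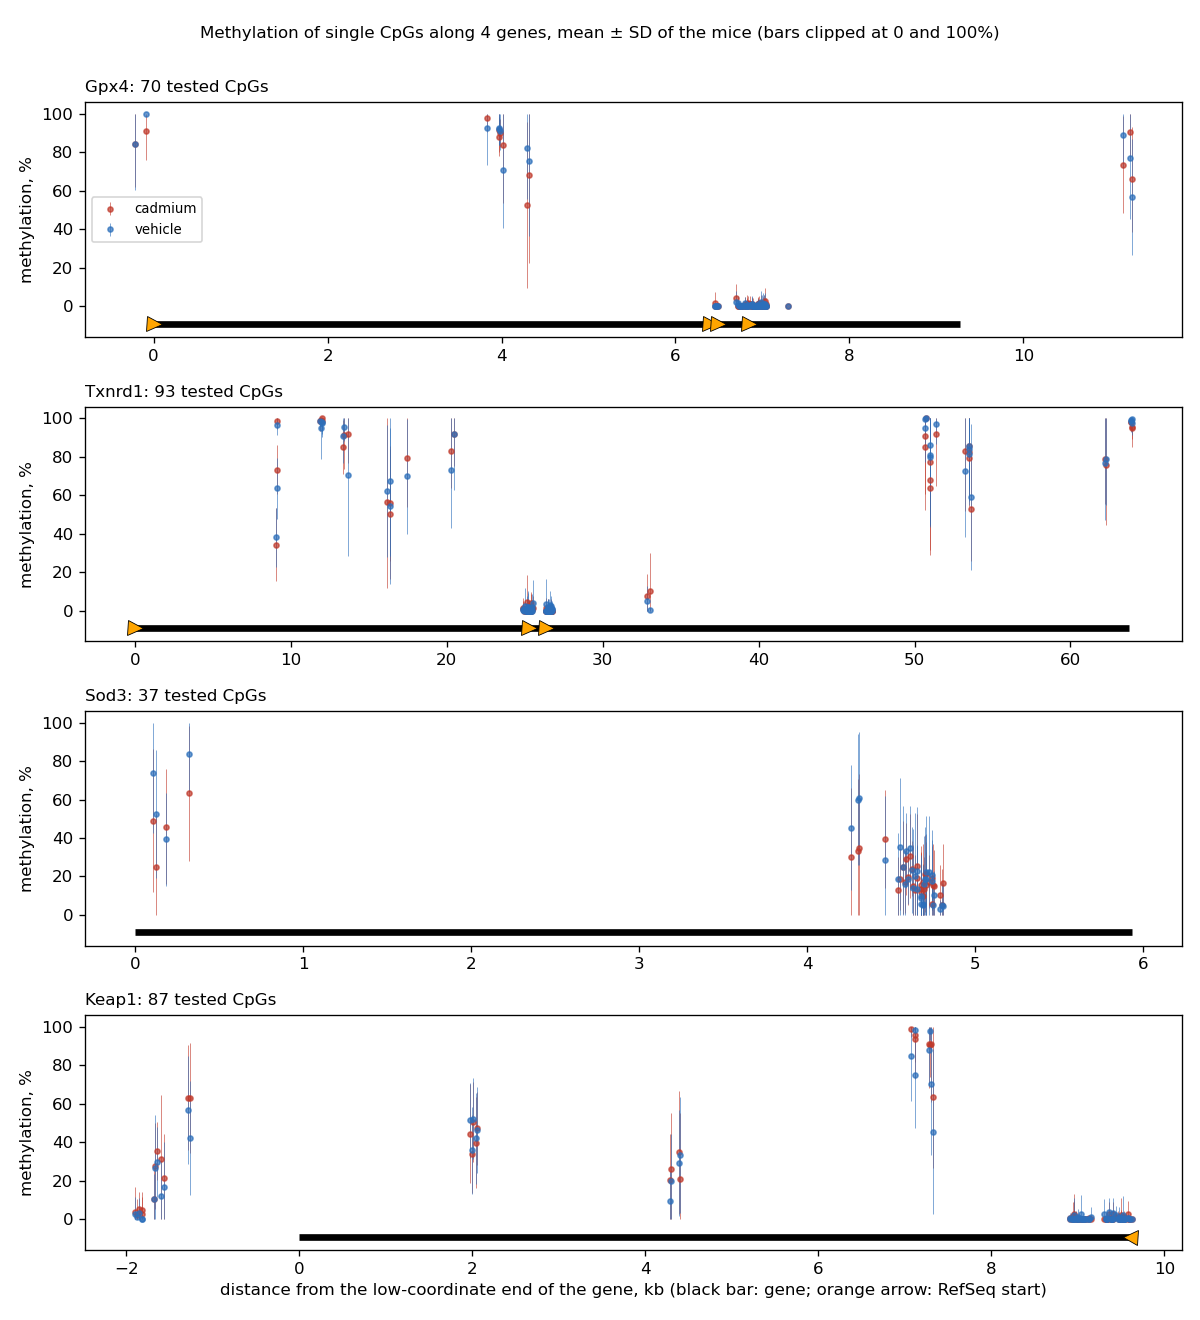
Methylation in percent (y axis) of each tested CpG against its distance in kb from the low-coordinate end of Gpx4, Txnrd1, Sod3 and Keap1 (x axis), as mean ± SD of the cadmium (red) and vehicle (blue) mice, with bars clipped at 0 and 100%; black bars are genes and orange arrows RefSeq starts. In Gpx4 and Txnrd1 the CpGs near 0% sit at inner starts and methylated CpGs on both sides, while the Sod3 body lies around 20% in both groups.

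Glutathione S-transferases join glutathione to electrophiles. Gstp1, the pi class member, averaged 1.02% and 1.43% at its 5′ end, and Gstm1, a mu class member, averaged 6.41% ± 5.23 and 5.88% ± 3.75. In Gstm1 the 5 CpGs closest to the start averaged 0.316% and 1.61%, and 6 further upstream averaged 17.3% and 13.2%. The body of Gsta4, an alpha class enzyme for lipid aldehydes (chr9:78191966-78209349; 9 CpGs), ranged from 55.1% to 88.0% (median 77.7%) in cadmium and from 48.5% to 93.8% (median 69.4%) in vehicle. The highest and lowest mice were both in vehicle, and the groups overlapped. The Gsta4 means were 77.5% ± 9.46 and 71.0% ± 11.9, a difference of 6.58 points (logistic model, p = 0.0548, adjusted p = 1). Its CpGs formed 2 runs, of which one of 4 CpGs averaged 57.6% ± 17.1 in cadmium and 43.5% ± 23.8 in vehicle. The other, of 5 CpGs and reaching into the high-coordinate end, averaged 93.9% ± 5.64 and 93.3% ± 6.44.

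Gsto1, the omega class enzyme with thiol transferase activity, averaged 1.33% and 1.36% at its 5′ end. Its 8 body CpGs ranged from 87.6% to 100% (median 96.6%) in cadmium and from 80.1% to 100% (median 96.9%) in vehicle. Means of 96.1% ± 4.21 and 94.7% ± 5.69 differed by 1.45 points (logistic model, p = 0.149, adjusted p = 1). Its 3′ end, which takes in the end of the neighbouring Gsto2, averaged 0.246% and 0.565%.

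In the thioredoxin system, Txn1, the small disulfide reductase itself, averaged 0.627% and 1.08% at its 5′ end. At its 3′ end, 3 CpGs ranged from 0% to 45.7% (median 28.5%) in cadmium and from 4.81% to 57.9% (median 17.6%) in vehicle, at means of 25.9% ± 13.4 and 24.3% ± 15.3 (logistic model, p = 0.585, adjusted p = 1). The order of the medians and the highest mice pointed in opposite directions. Txnrd1, the cytosolic reductase of thioredoxin (chr10:82833951-82897724), had 89 body CpGs that ranged from 15.8% to 28.0% (median 20.3%) in cadmium and from 13.9% to 31.7% (median 19.9%) in vehicle. The group means were 20.9% ± 4.14 and 20.7% ± 6.30 (logistic model, p = 0.929, adjusted p = 1).

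That body level of Txnrd1 joins 2 kinds of CpG. A run of 32 CpGs at the second RefSeq start averaged 0.712% and 0.603%, and a run of 25 at the third averaged 0.336% and 0.695%. Away from the starts, runs of 3 to 6 CpGs averaged from 52.6% to 99.1% in cadmium and from 56.6% to 97.3% in vehicle. In 4 of these runs the cadmium mean was higher, by 2.59 points or less. The difference of cadmium minus vehicle was -4.06 points in a run of 3 CpGs (52.6% ± 32.8 and 56.6% ± 37.0, n = 14 in vehicle). It was -12.2 points in a run of 6 (76.3% ± 29.9 and 88.5% ± 21.5). Both differences were smaller than either SD between mice, and runs were not tested between the groups. At the 3′ end of Txnrd1, 4 CpGs ranged from 89.2% to 100% (median 97.1%) in cadmium and from 92.4% to 100% (median 100%) in vehicle. The means there were 96.4% ± 3.65 and 98.5% ± 2.70 (logistic model, p = 0.0655, adjusted p = 1).

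Txnrd2, the mitochondrial reductase, averaged 5.10% ± 2.73 and 4.37% ± 2.53 at its 5′ end and 94.1% and 94.9% in its body. At the 5′ end of Txnrd2, 27 CpGs around the start averaged 0.420% and 0.206%. The 3 CpGs of its 3′ end ranged from 33.3% to 100% (median 79.2%) in cadmium and from 37.7% to 100% (median 85.6%) in vehicle, at 70.6% ± 21.9 and 74.2% ± 21.9 (logistic model, p = 0.710, adjusted p = 1). The same spread filled both groups. Txnrd3, the testis-enriched reductase that also reduces glutathione, averaged 0.443% and 0.513% at its 5′ end (61 CpGs) and 95.2% and 96.9% at its 3′ end.

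Peroxiredoxins remove hydrogen peroxide through a reactive cysteine, and Srxn1 (sulfiredoxin) restores that cysteine when it is overoxidised. The 5′ ends of Prdx1, Prdx2, Prdx3 and Srxn1 averaged between 0.428% and 1.15% in both groups, and the high-coordinate end of Prdx6, a peroxiredoxin with phospholipase activity, averaged 0.405% and 0.665%. Prdx4, the secretory pathway member on the X chromosome, had 4 CpGs inside its gene model, just inside its RefSeq start at chrX:155338460. They averaged 0.5003% (n = 13) and 0.587%. Most mice were near 0% in these regions. The highest mice reached 10.4% in cadmium and 6.56% in vehicle at the Prdx3 5′ end, and 6.50% and 5.91% in the Prdx4 body. At the 3′ end of Prdx2, 38 CpGs ranged from 0% to 1.08% (median 0.293%) in cadmium and from 0.0422% to 1.25% (median 0.558%) in vehicle. The means were 0.365% ± 0.343 and 0.571% ± 0.371 (logistic model, p = 0.166, adjusted p = 1).

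Prdx5, the peroxiredoxin of mitochondria and peroxisomes, had 59 CpGs at a 5′ end that also holds ends of Trmt112 and Esrra. Its level ranged from 0.435% to 8.71% (median 4.74%) in cadmium and from 0.832% to 9.72% (median 5.97%) in vehicle. The groups overlapped almost wholly, at 4.78% ± 2.38 and 5.90% ± 2.61 (logistic model, p = 0.0877, adjusted p = 1). A run of 56 CpGs around the start averaged 0.420% and 0.467%, and a run of 3 further upstream averaged 81.5% ± 12.5 and 81.9% ± 9.53 (n = 14 in vehicle). The methylated CpGs of the 5′ end thus lay upstream of the start in Prdx5, as in Gpx1.

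Superoxide dismutases turn superoxide into hydrogen peroxide, which catalase (Cat) splits. Sod1, the cytosolic copper-zinc enzyme, averaged 0.722% and 0.654% at its 5′ end, and Sod2, the mitochondrial manganese enzyme, 4.77% ± 1.44 and 4.43% ± 1.32. Sod3, the extracellular enzyme (chr5:52363804-52369738), was partly methylated on average in both regions read, although 4 of its 33 body CpGs were under 10%. The 4 CpGs at its low-coordinate end ranged from 12.8% to 87.9% (median 42.5%) in cadmium and from 13.3% to 80.9% (median 56.8%) in vehicle. Means of 47.6% ± 24.0 and 54.3% ± 20.5 overlapped broadly (logistic model, p = 0.456, adjusted p = 1).

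The 33 body CpGs of Sod3 ranged from 4.71% to 31.9% (median 20.2%) in cadmium and from 1.82% to 63.0% (median 21.2%) in vehicle. Both the lowest and the highest mouse were in vehicle, whose SD of 16.1 compares with 8.20 in cadmium. The means were 20.7% and 21.1% (logistic model, p = 0.987, adjusted p = 1). Cat was methylated in its body (92.8% and 93.1%) and at its 3′ end (97.6% and 97.4%). The 6 CpGs at the 5′ end of Cat were at 0% in all 15 cadmium mice, and in vehicle ranged from 0% to 7.55% with a median of 0%. The vehicle mean of 0.503% ± 1.95 came from a single mouse (logistic model, p = 0.0403, adjusted p = 1; limma, p = 0.329).

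Nfe2l2 encodes Nrf2 and Keap1 its sensor and inhibitor. Their 5′ ends averaged 0.672% and 0.621% in Nfe2l2 and 0.417% and 0.476% in Keap1. The 6 body CpGs of Nfe2l2 (chr2:75675513-75704663, - strand) ranged from 29.5% to 92.9% (median 54.6%) in cadmium and from 18.5% to 98.6% (median 66.4%) in vehicle. Both groups filled most of this range, at means of 58.0% ± 20.04 and 62.9% ± 23.9 (logistic model, p = 0.735, adjusted p = 1). In Keap1 (chr9:21229730-21239332, - strand), 16 body CpGs ranged from 21.1% to 67.9% (median 52.7%) in cadmium and from 25.4% to 75.0% (median 50%) in vehicle, at 51.0% ± 13.4 and 51.2% ± 13.4 (logistic model, p = 0.643, adjusted p = 1). Its 12 CpGs at the 3′ end ranged from 10.7% to 40.2% (median 24.4%) in cadmium and from 9.54% to 44.1% (median 21.2%) in vehicle. There the means were 25.2% ± 9.68 and 22.2% ± 11.01 (logistic model, p = 0.789, adjusted p = 1). The Keap1 body held runs of unlike level, from 25.0% and 24.6% over 4 CpGs to 90.6% ± 10.8 (n = 14) and 80.5% ± 15.7 over 7.

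Nqo1, the quinone reductase that is a standard readout of Nrf2, had 8 tested CpGs, all in the body. They ranged from 41.2% to 93.0% (median 62.4%) in cadmium and from 36.1% to 98.2% (median 72.5%) in vehicle. Means of 65.5% ± 14.8 and 73.3% ± 16.1 differed by -7.80 points, which was smaller than either SD (logistic model, p = 0.237, adjusted p = 1). Hmox1, the inducible heme oxygenase, had 19 CpGs at its low-coordinate end, from 0% to 2.05% (median 0.555%) in cadmium and from 0% to 1.02% (median 0.258%) in vehicle. The Hmox1 means were 0.642% ± 0.665 and 0.345% ± 0.355 (logistic model, p = 0.0918, adjusted p = 1). Hmox2 averaged 0.478% and 0.443% at its 5′ end. Its 8 body CpGs, of which 6 are those of the third start printed above, ranged from 17.5% to 82.2% (median 54.8%) in cadmium and from 25.2% to 100% (median 60.0%) in vehicle, at 52.5% ± 20.2 and 60.4% ± 23.6 (logistic model, p = 0.674, adjusted p = 1). An end of Cdip1 lies in the same body.

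Single CpGs gave the same picture. The logistic model called 0 of the 1312 CpGs of these genes at an adjusted p under 0.05, against 0.000533% of all CpGs, which is 6 of 1125285. At an unadjusted p under 0.05 it took 140 (10.7%), 80 higher and 60 lower in cadmium, against 10.1% of all CpGs. Where nothing differs, an exact test would take a share of 0.05 at that threshold, so the single-CpG p-values of the logistic model may be too small. Limma took 18157 of all 1125285 CpGs, less than that share, so its p-values may be too large. With limma on percent methylation, 10 of the 1312 had an unadjusted p under 0.05 and 0 were called. In 7 of the 8 CpGs with the smallest p, every measured mouse of one group was at 0% or at 100%, and the difference came from a few mice of the other. A group of that kind adds no spread to the dispersion term of the logistic model, which can make p too small.

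The smallest p belonged to a CpG at the high-coordinate end of Gsr (chr8:33697350-33697351). In cadmium it ranged from 88.5% to 100% (median 100%), with 5 of 15 mice below 100%, and in vehicle all 15 mice were at 100%. The mean of 97.4% ± 4.28 in cadmium gave a difference of -2.56 points (logistic model, p = 4.49e-07, adjusted p = 0.0522; median of 63 reads per mouse). It passed the threshold with a minimum of 5 reads (adjusted p = 0.0419) and among CpGs read in all 15 mice of each group (adjusted p = 0.0275), and it did not with 20 reads (0.0642) or limma (0.920). The 6 CpGs of the same run in Gsr averaged 98.7% ± 2.16 in cadmium and 96.4% ± 3.73 in vehicle, the opposite order.

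Of the next CpGs, 4 were at 0% in every vehicle mouse. A CpG at the 3′ end of Keap1 was above 0 in 4 of 12 cadmium mice, up to 31.2% (mean 4.83% ± 9.37; 11 vehicle mice; logistic model, adjusted p = 0.199). The CpG of the Sod2 window printed above was above 0 in 4 of 15 cadmium mice, up to 12% (mean 2.78% ± 4.83; adjusted p = 0.207). In the Gpx4 body, 2 of 13 cadmium mice were above 0, up to 9.62% (mean 1.22% ± 3.06; adjusted p = 0.217). In the Txnrd1 body, 5 of 15 cadmium mice were above 0, up to 6.38% (mean 1.00% ± 2.02; adjusted p = 0.262). All 4 had a median of 0% in both groups.

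At the upstream start of Gpx4, the CpG 92 bases before the start was below 100% in 4 of 13 cadmium mice, down to 60.8% (mean 90.9% ± 14.97), and at 100% in all 12 vehicle mice (logistic model, adjusted p = 0.225). A CpG of the 5′ end of Gclm, 768 bp inside the gene, was above 0 in 4 of 15 cadmium mice, up to 33.96% (mean 5.37% ± 10.6), and in 1 of 15 vehicle mice (mean 0.106% ± 0.410; adjusted p = 0.242). One CpG at the 5′ end of Prdx1 went the other way, at 0% in all cadmium mice and above 0 in 3 of 15 vehicle mice, up to 13.3% (mean 2.39% ± 5.01; adjusted p = 0.267). Medians were 0% in both groups at the Gclm and Prdx1 CpGs.

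**Figure D4:**
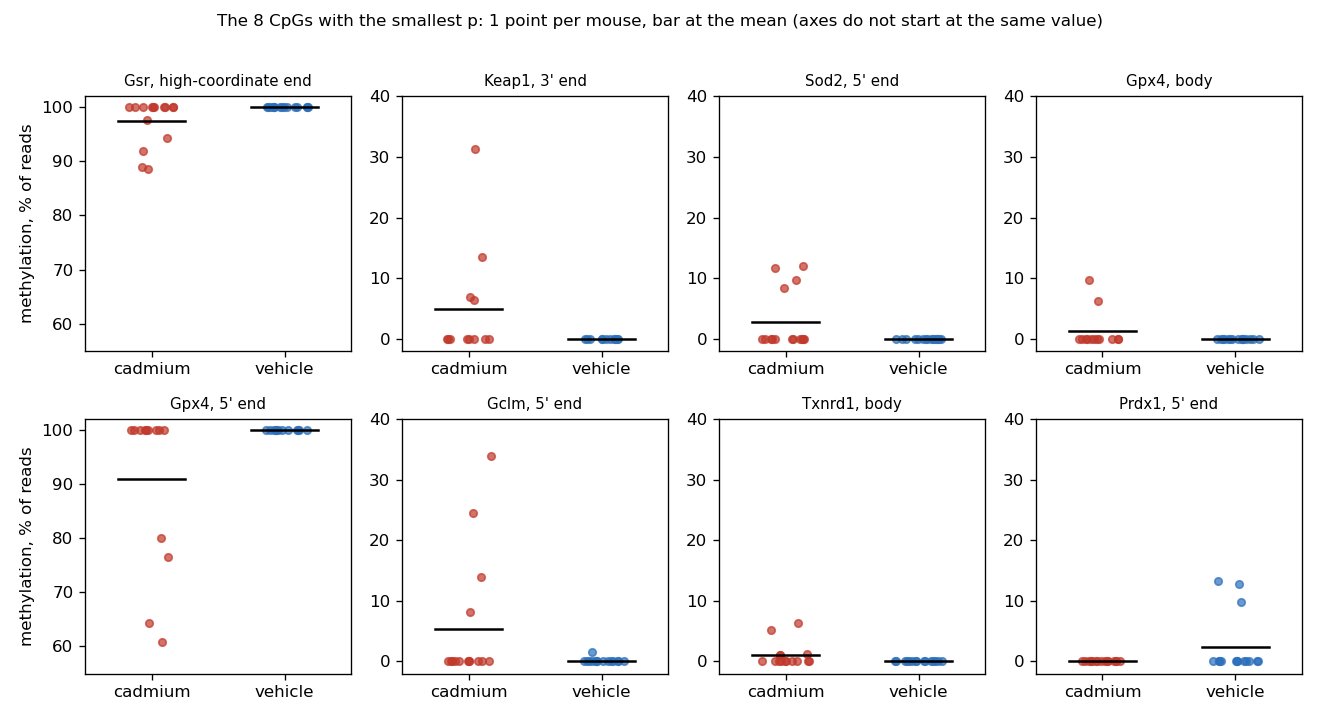
Methylation in percent of reads (y axis) of the 8 CpGs of the antioxidant genes with the smallest p, 1 point per mouse and a bar at the mean, for cadmium (red) and vehicle (blue); panels at high methylation start at 55%. In 7 panels all mice of one group sit at 0% or 100%, and Gsr has 5 cadmium mice below 100%.

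Other genes of these pathways, from a list of 94 with further transferases, thioredoxins, NADPH suppliers and Nrf2 partners, were compared in the same way. Of their 155 regions the logistic model called 0, and 8 (5.16%) had an unadjusted p under 0.05, 5 higher and 3 lower in cadmium. The 5′ end of Glrx5, a mitochondrial glutaredoxin for iron-sulfur clusters, averaged 8.13% ± 2.68 in cadmium and 5.81% ± 2.23 in vehicle (p = 0.0113, adjusted p = 0.953). The body of Oxr1, an oxidation resistance gene, averaged 14.0% ± 3.43 and 10.7% ± 2.92 (p = 0.0119, adjusted p = 0.953). The low-coordinate end of Abcc1, a pump for glutathione conjugates, averaged 0.495% and 0.208% (p = 0.0164, adjusted p = 0.984). The body of Hagh, the glyoxalase that frees glutathione, averaged 8.55% ± 1.98 and 6.77% ± 2.02 (p = 0.0312, adjusted p = 1). These regions were higher in cadmium, and in each the groups overlapped.

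Partly methylated regions of the antioxidant genes had SDs between the mice of a group of 4.14 to 29.7 points, against differences between the groups of 10.98 points or less. For many of them the level moved with the maternal germline DMR level of the mouse. Of the 15 regions that were measured in all 30 mice and had a mean of 10% to 90% in both groups, 3 had r of 0.5 or more with this level, where 15.1% of the 15262 such regions of all genes did, and 6 had r of -0.5 or less, where 21.3% of all did. The body of Gclc had r = -0.728 (rho = -0.735; permutation tests, adjusted p = 3.00e-04 and 1.50e-04), and was lower in mice with a higher maternal level. The body of Sod3 had r = 0.677 (rho = 0.640; adjusted p = 3.75e-04 and 9.75e-04), and was higher in them. These p-values are from 100000 resamples and are adjusted over the 15 regions.

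Negative relations were also found in the bodies of Nqo1 (r = -0.659, rho = -0.669), Gpx6 (r = -0.634, rho = -0.664) and Nfe2l2 (r = -0.604, rho = -0.615), at the low-coordinate end of Sod3 (r = -0.574, rho = -0.580) and at the 3′ end of Txnrd2 (r = -0.551, rho = -0.547), with adjusted permutation p of r between 6.00e-04 and 0.00334. The bodies of Slc7a11 (r = 0.559, rho = 0.496), Keap1 (r = 0.537, rho = 0.529) and Gsta4 (r = 0.487, rho = 0.547) were positive (adjusted permutation p of r 0.00289, 0.00357 and 0.00939). The low-coordinate end and the body of Sod3 thus went in opposite directions with the same measure. Txnrd1 (r = -0.418, rho = -0.339, adjusted permutation p = 0.0295 and 0.0843) passed by r only, and Hmox2 (r = -0.369), the 3′ ends of Txn1 (0.324), Gpx4 (-0.229) and Keap1 (-0.111) did not pass.

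Every one of the 10 relations from Gclc to Gsta4 had the same sign within each group. Within vehicle the negative ones ran from -0.896 in Gclc to -0.643 in Nfe2l2 and the positive ones from 0.510 in Gsta4 to 0.774 in Slc7a11. Within cadmium they ran from -0.525 in Nfe2l2 to -0.287 in Txnrd2 and from 0.268 in Slc7a11 to 0.534 in the Sod3 body. Without the 2 mice farthest from the median maternal level, both of them vehicle mice, r was -0.642 in Nqo1, -0.635 in Nfe2l2, -0.621 in Gclc, -0.584 in Gpx6, -0.495 at the low-coordinate end of Sod3 and -0.415 in Txnrd2. It was then 0.579 in Gsta4, 0.573 in the Sod3 body, 0.497 in Keap1 and 0.420 in Slc7a11. Of the 15 regions, 2 had r of 0.5 or more without these mice, against 10.7% of such regions of all genes, and 4 had r of -0.5 or less, against 13%.

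The mitochondrial share of coverage, from 0.0127% to 0.119% of a library, moved with the same regions and with the maternal level itself (r = 0.742, rho = 0.746). It had r of -0.891 with the Nfe2l2 body (rho = -0.892; -0.873 within cadmium and -0.915 within vehicle), 0.809 with the Sod3 body (rho = 0.830), -0.759 with Nqo1 and -0.752 with Gclc, each with an adjusted permutation p of 3.20e-05, from the smallest p that 100000 resamples can give. Of the 15 regions 4 had r of 0.5 or more with it, against 17% of all such regions, and 7 had r of -0.5 or less, against 30.6%. In 12 of the 15, r was larger in size with this share than with the maternal level. By r and by rho, 12 had an adjusted permutation p under 0.05, against 11 and 10 with the maternal level. Without the 2 mice farthest from its median, r was -0.864 in Nfe2l2 and 0.821 in the Sod3 body. The mitochondrial share did not differ between the groups beyond its spread (0.0586% ± 0.0252 and 0.0584% ± 0.0342; permutation test, p = 0.987). The part of other cells, of depth or of any other property of the libraries in these relations was not tested.

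**Figure D5:**
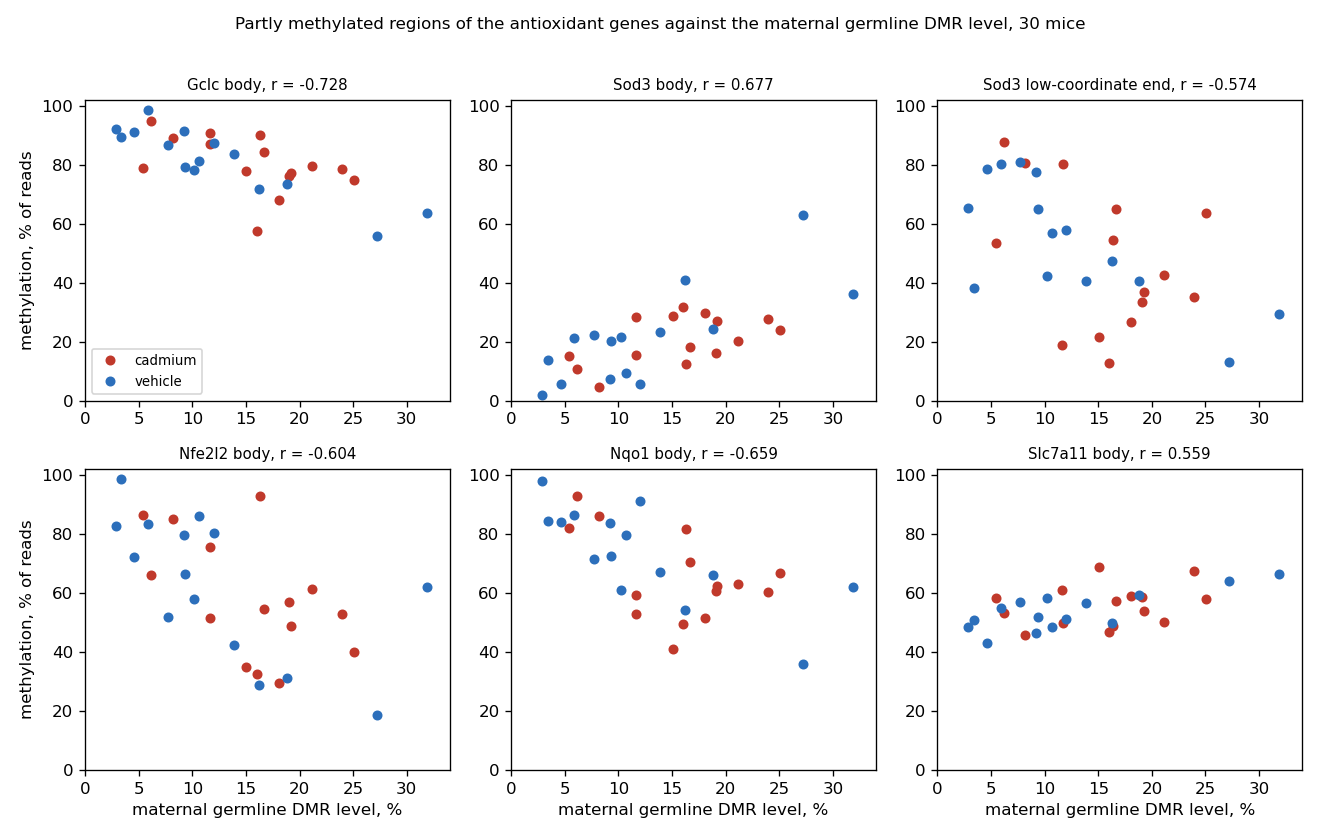
Methylation in percent of reads (y axis) of 6 partly methylated regions against the maternal germline DMR level in percent (x axis), 1 point per mouse, cadmium (red) and vehicle (blue). Gclc, the low-coordinate end of Sod3, Nfe2l2 and Nqo1 slope down, the Sod3 and Slc7a11 bodies slope up, and both groups lie along the same band.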

How the data were processed

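RRBS of cauda epididymal sperm was deposited as 1 table per mouse for 15 cadmium and 15 vehicle mice. Each table, as the authors deposited it, has a row per cytosine and strand with its read count and its methylated fraction. Tools named in the submitters' processing notes are methylKit 1.12.0, Bismark 0.22.3, Trim Galore 0.5.0 and bcl2fastq, for the builds GRCm38 and mm10; tasks and order are not given in the sources used here. Methylated reads were recovered as fraction times count, which came within 0.1 of a whole number except at 0 or 1 cytosine per library. The methylated control sequence read 97.9% to 98.7% and the unmethylated one 0.0740% to 0.666%, which bounds conversion error near 0% and 100%. Since reads can be PCR copies, counts overstate the molecules read.

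Strands were summed. A CpG entered the tests when 10 mice or more of both groups each had 10 reads or more. Coverage above the 99.9th percentile of a mouse was dropped; the percentile was set over CpGs where 20 mice or more had 5 reads or more. Groups were compared with a logistic model whose Pearson dispersion was never below 1 and an F test, on single CpGs and on the summed reads of each region with at least 3 CpGs. Benjamini-Hochberg adjustment ran over all genes, with a threshold of 0.05. The model was tested on simulated reads of summed regions, drawn with their own fitted dispersions, and was not tested that way on single CpGs. The size of difference it could find in a region is not given here. In genes under 2000 bp the ends meet at the midpoint. Runs are CpGs no more than 300 bp apart and their level is the mean over CpGs. The maternal germline DMR level averages Peg3, Usp29, Peg10, Sgce, Nnat, Airn, Grb10, Zrsr1, Mcts2, Peg13, Inpp5f and Igf2r, gene ends under 20%; Peg3 shares CpGs with Usp29 and Peg10 with Sgce. Relations used permutation tests with 100000 resamples; those with the mitochondrial share were added after seeing the data. Strands and promoter letters came from RefSeq tables of GRCm38.p6.

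The 34 genes and the list of 94 others were chosen with earlier results of these data known. Regions given in full are the 8 with the smallest p and those with a mean of 10% to 90% in both groups, and CpGs the 8 with the smallest p; of the other genes, the 4 regions with the smallest p. Alternatives were other coverage minimums, windows and CpG numbers, all 15 mice, no dispersion term, no upper limit, separate strands, and limma 3.58.1 on percent methylation, alone, with a replicate block or with the maternal level. Tools were numpy 2.4.6, pandas 2.3.3, scipy 1.17.1 and matplotlib 3.10.9.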

Additional observations from a re-analysis of the deposited data

How the results depend on the processing

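No region and no CpG of the 34 genes was called with the logistic model at 20 reads, without an upper coverage limit or with limma in any of its 3 forms, no CpG with strands kept apart, and no region with the other windows or with 1 or more CpGs. At 5 reads and with all 15 mice of each group, 1 CpG was called in each case, the Gsr CpG described above. Without a dispersion term 483 of 1312 CpGs and 31 of 54 regions were called, as were 483988 CpGs and 25773 regions of all genes; that model ignores the spread between mice. Deviations of same-numbered mice correlated above 0.1 in 6 of 15 pairs (-0.268 to 0.693; mean 0.113 against -0.00666 for other pairs), and 2 mice correlated best with their own number. Whether replicate numbers pair the mice was not tested. The mitochondrial share was 0.0127% to 0.0502% in cadmium mice 1 to 5 and 0.0559% to 0.0923% in cadmium mice 11 to 15. It was 0.0128% to 0.0906% in vehicle mice 1 to 5, 0.0776% to 0.119% in vehicle mice 11 to 14 and 0.0440% in vehicle mouse 15. Its relation to the replicate number was not tested. With the replicate block, limma called 0 CpGs and 0 regions of these genes. No 2 libraries looked like the same one, with a mean chi-square per CpG of at least 8.72 over 435 pairs.

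Of 289 single differences under an alternative, 248 kept direction and side of the threshold, 28 passed it only there (26 of them without the dispersion term) and 13 changed sign; the cause was not tested. With the maternal level in the model the differences became 2.23 points in the Gclc body, 1.13 in the Nfe2l2 body, 1.87 at the 3′ end of Txnrd2 and -0.438 at that of Txn1. With ends reaching 500 bp inside the gene, the bodies of Gclc, Nfe2l2, Keap1 and Hmox2 gave 1.49, 0.969, 0.191 and 3.80. At 5 reads the Gpx4 3′ end gave -1.18 and the Keap1 body 1.23, at 20 reads the Sod3 body gave 1.07, and with all 15 mice the Slc7a11 body gave -0.326 and the Sod3 body 0.252. Numbers of regions related to the maternal level at 5 and 20 reads and without the 2 mice farthest in that level, alternatives chosen after seeing the data, stayed within 1.5 times (9, 6 and 6 against 9). Coverage of few reads per CpG limits levels near 0% and 100%: a region of 3 CpGs rested on a median of 103.5 to 288 reads per mouse.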

Other observations

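Some regions of the antioxidant genes had fewer than 3 tested CpGs and stand outside the comparison. The body of Sod2, with 2 CpGs, averaged 75.1% ± 22.0 in 11 cadmium mice and 94.3% ± 10.0 in 10 vehicle mice, a difference of -19.2 points that reached an unadjusted p of 0.0284 in the logistic model (adjusted p = 0.865) when regions of 1 or more CpGs were tested. Cadmium mice ran from 50% to 100% and vehicle mice from 72.9% to 100%. The body of Txnrd3, with 1 CpG, averaged 81.1% ± 20.4 in cadmium and 90.8% ± 16.2 in vehicle (n = 14). Methylated 3′ ends of 2 CpGs were found in Prdx4 (94.8% and 97.5%), Prdx5 (90.9% and 95.7%, n = 14 in vehicle) and Nfe2l2 (96.4% and 96.4%, n = 12 in each group). In Gsta4 the low-coordinate end, with 1 CpG, averaged 42.9% ± 22.3 (n = 13) and 36.5% ± 25.1.

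Within the high-coordinate end of Gsr, a run of 4 CpGs at chr8:33699495-33699519 averaged 72.5% ± 30.9 in 12 cadmium mice and 55.2% ± 38.7 in 10 vehicle mice, with mice at 0% and at 100% in each group. Slc7a11 also held a run of 4 CpGs at chr3:50388240-50388502 with a median of 0% in both groups and a highest mouse at 50% in each. In the low-coordinate end of Gsr, 4 CpGs between -849 and -700 bp from the gene averaged 15.95% ± 15.7 and 21.9% ± 17.5, beside 56 CpGs inside it at 0.609% and 0.541%. Among single runs, the one of 9 CpGs in Slc7a11 had r = 0.753 with the maternal germline DMR level over 30 mice. These runs were picked out after their values were seen and were not tested.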
